A study of Arabidopsis thaliana with 45 samples.

Results

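Abscisic acid is a plant hormone whose level in a leaf depends on how fast it is made and how fast it is broken down. The 9 genes described here encode enzymes of both arms: the 9-cis-epoxycarotenoid dioxygenases NCED2 (AT4G18350), NCED3 (AT3G14440), NCED5 (AT1G30100) and NCED9 (AT1G78390), the abscisic aldehyde oxidase AAO3 (AT2G27150), and the abscisic acid 8'-hydroxylases CYP707A1 (AT4G19230), CYP707A2 (AT2G29090), CYP707A3 (AT5G45340) and CYP707A4 (AT3G19270). They were chosen by locus, with earlier results of these data known, and are 9 of the 37336 genes in the table. Of these, 8 passed the filter used for testing, which kept 23493 genes with at least 3 libraries at 10 or more. NCED9 did not pass, and NCED2 passed through a single group of 3 libraries.

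Dioxygenases of the NCED family cut 9-cis carotenoids inside plastids and give xanthoxin, which is the committed step of the pathway. Xanthoxin is turned into abscisic aldehyde by ABA2 in the cytosol, and AAO3, which needs the molybdenum cofactor that ABA3 activates, oxidises the aldehyde to abscisic acid. The CYP707A enzymes hydroxylate abscisic acid on the way to phaseic acid, which is the main route of its breakdown. In Arabidopsis leaves abscisic acid closes stomata, carries drought signals and promotes senescence.

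Polyadenylated RNA of first true leaves of Arabidopsis thaliana was sequenced in 45 libraries, 3 in each of 15 groups. The wild-type accession Col-0 was sampled on D13, D18, D23, D30 and D40 (days written DAG in the labels, which do not spell it out) under both a long day of 16 h of light with 8 h of dark and a short day of 8 h of light with 16 h of dark. The line tcx5/6, in the Col-0 background, was sampled under long days on D13, D18, D23, D30 and D45. Its name points to TCX5 and TCX6, CXC-domain proteins of the DREAM complex, and the labels do not describe its alleles. Neither the number of plants in a library, the hour of harvest nor what the replicates were is given, so p-values measure no more than how these libraries vary, which may be technical. Values are normalised read counts (reads per gene divided by 1 size factor per library) and are given as mean ± SD with n = 3 libraries. Adjusted p-values are from limma on log2(value + 1), adjusted by Benjamini-Hochberg over the 23493 genes of a comparison, with calls made under 0.05. Log2 differences are fitted values ± SE.

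Library depth was 16824317 to 40252818 reads in genes. TCX5 ranged from 231 to 522 in tcx5/6, much as in Col-0 under long days (271 to 525), and it was lowest in the libraries labelled short days (54.1 to 216). TCX6 ranged from 0 to 142 in tcx5/6, from 15.7 to 418 in Col-0 under long days and from 219 to 2200.0 under short days. Both names therefore stand here for the libraries so labelled. Short-day triplicates differed by a similar multiple of counting noise at low and high read counts (ratio of 1.05 to 1.12, against 1.55 to 12.9 in the other groups). A fit that took each short-day group as 1 library was therefore run beside the main one. Replicate 2 of tcx5/6 at D18 stood apart from its group (lowest replicate correlation of 0.836). In Col-0 long days at D40 the lowest correlation was 0.877, and replicate 1 held RBCS1A, a mesophyll gene, at 4322, against 27955 and 21098. That library was also the highest of its group for NCED2, NCED3, NCED5, AAO3, CYP707A1 and CYP707A3, and the lowest for CYP707A2 and CYP707A4. Genes of leaf mesophyll were abundant at D13 and lower late, and the summed level of 3 mesophyll genes was 922207 to 990277 in Col-0 long days at D13 and 16282 to 85748 at D40. In RNA from whole leaves, fewer cells of a type and less RNA per cell cannot be told apart.

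The members differed widely in level. Per kb of exon, NCED3 was the highest of the 4 dioxygenase genes in each of the 15 group means, from 19.8 normalised reads per kb in short days at D13 to 493 in long days at D40. AAO3 lay between 107 per kb in tcx5/6 at D13 and 1007 per kb in long days at D40. Among the hydroxylase genes the leading member changed from group to group: CYP707A3 reached 4529 per kb in short days at D40, where CYP707A2 stood at 169.6, whereas in tcx5/6 at D45 CYP707A2 stood at 354 and CYP707A3 at 9.88. NCED9 was at 0 in 39 of 45 libraries and NCED2 in 37 of 45.

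**Figure D1:**
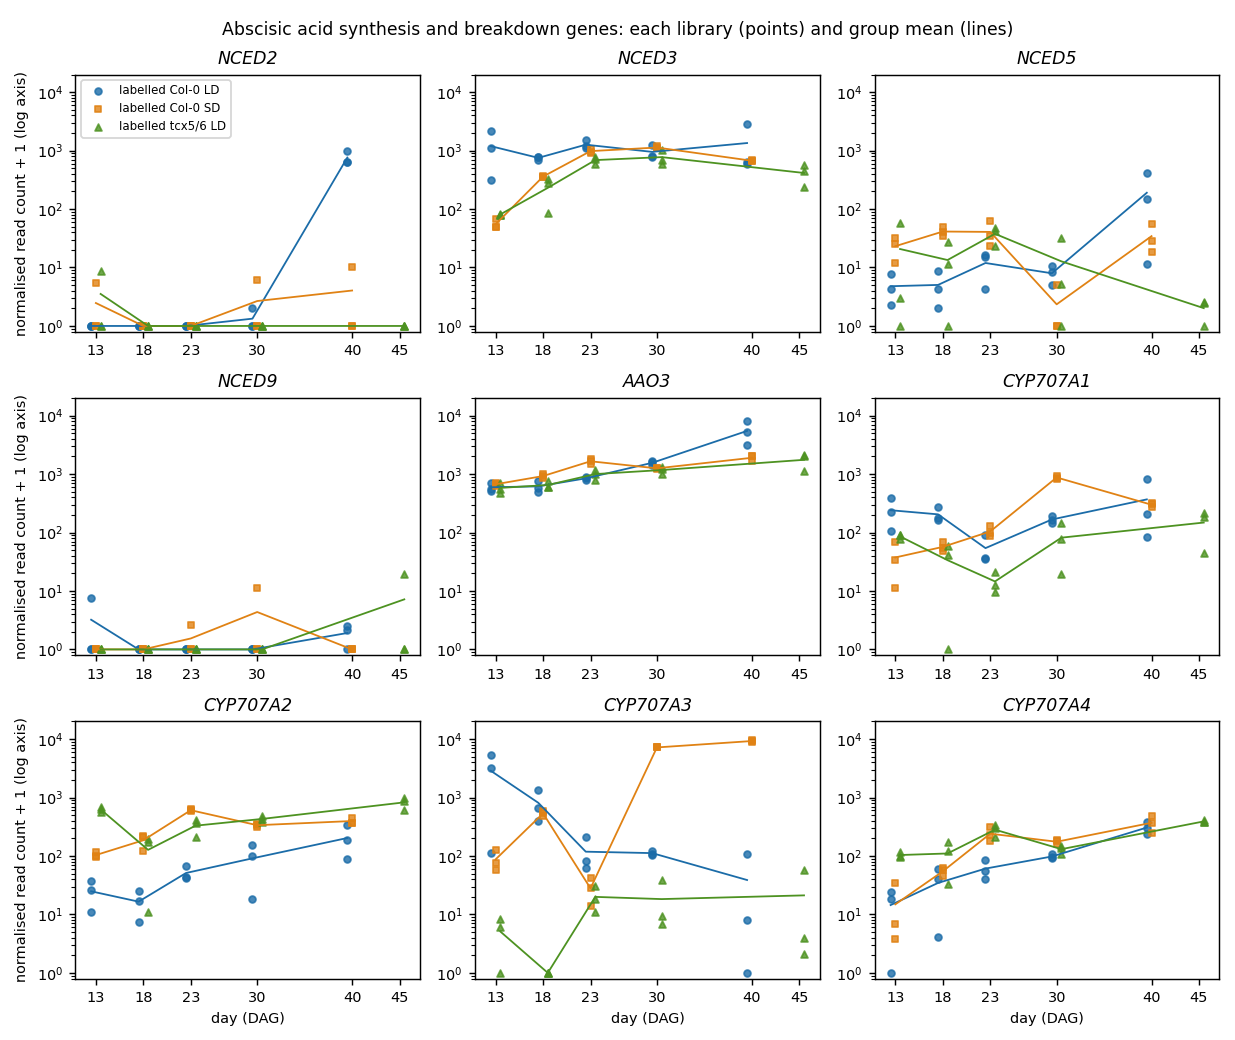
Normalised read count + 1 (log axis) of each of the 9 genes against day, with 1 point per library and lines through the group means of 3 libraries for the libraries labelled Col-0 LD (blue), Col-0 SD (orange) and tcx5/6 LD (green). NCED2 leaves the floor in 1 group, Col-0 LD at D40. CYP707A3 ends lower at D40 than at D13 in the blue series and higher in the orange, and its means fall from D18 to D23 in both.

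NCED3, the dioxygenase that drought induces most strongly in Arabidopsis leaves, was low in young leaves of 2 series and already high in the third. In Col-0 under long days the 3 libraries of D13 held 2164, 1087 and 317 normalised reads, and those of D40 held 2803, 639 and 593. Under short days the libraries of D13 held 47.7, 66.1 and 48.4, those of D18 348, 353 and 373, and those of D40 671, 679 and 658. In tcx5/6 the 3 libraries of D13 held 79.3, 79.6 and 81.2 and those of D45 564, 438 and 237. Long-day Col-0 libraries of D13 and D40 overlapped, while in the other 2 series each late library lay above each library of D13.

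The rise of NCED3 with age was 12.4-fold under short days (limma adjusted p = 1.8e-08, and 0.0041 with each short-day group as 1 library) and 5.16-fold in tcx5/6 (adjusted p = 6.7e-05). Under long days in Col-0 the fitted log2 difference was 0.17 ± 0.47, which did not pass (adjusted p = 0.76). At D13 itself NCED3 was 22-fold higher under long than under short days (adjusted p = 9.6e-09), and 14.9-fold lower in tcx5/6 than in Col-0 of the same day length (adjusted p = 1.1e-07). These comparisons share the Col-0 long-day libraries of D13, which spread from 317 to 2164, and without replicate 1 of that group the folds were 13 and 8.78.

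Both series with a called rise climbed early. Under short days NCED3 rose 6.63-fold from D13 to D18 (adjusted p = 1.8e-05, and 0.12 with each short-day group as 1 library) and 2.73-fold from D18 to D23 (adjusted p = 0.017, and 0.055 without replicate 3 of D23). In tcx5/6 the means were 80.02 ± 1.01, 229.6 ± 128, 687 ± 95.7, 772 ± 239.7 and 413 ± 165 over the 5 days. The step of tcx5/6 from D18 to D23 (2.99-fold, adjusted p = 0.0051) was no longer called without replicate 2 of D18 (adjusted p = 0.089), the library that stands apart. From D23 on, neither series showed a called step. By D23 the means of the 3 series lay between 687 and 1260.5, and neither difference from Col-0 under long days passed on that day (adjusted p = 0.59 for short days and 0.18 for tcx5/6).

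NCED3 is known to be active in vascular tissue, and vascular markers moved with it at D13. The summed level of 7 vascular genes was 20257 to 23593 in Col-0 long days at D13, 6446 to 6625 in short days and 6979 to 7908 in tcx5/6, the same order of groups as for NCED3. Each of the 7 markers was higher in every long-day library than in every short-day library of D13. Of them 4 were called by limma, where 19.5% of the 23493 genes were called as higher under long days. At D23 the sums were 29982 to 33172, 15095 to 15298 and 16328 to 19274, with NCED3 at 1260.5 ± 208, 979 ± 84.3 and 687 ± 95.7. The sums are mostly SUC2 and AHA3 (9424 ± 1028 and 10171 ± 821 in Col-0 long days at D13). From D13 to D23 in short days the means of SUC2, AHA3 and APL rose. XCP1 went the other way, from 191 to 30.5, as did IRX3 (127 to 43.5), CESA4 (350 to 165) and CESA8 (128 to 67.1). The part of vascular tissue in the NCED3 values was not tested.

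NCED2 RNA was found in quantity in 1 group of the 15. The 3 libraries of Col-0 under long days at D40 held 994, 646 and 640.1 normalised reads. At D30 of the same series 1 library held 0.999, and the 9 libraries of D13, D18 and D23 were at 0. Among the 30 libraries labelled short days or tcx5/6 the highest value was 9.12, in short days at D40, and 26 were at 0.

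Against the floor of 3 reads over the group at D13, the level at D40 was at least 539.8-fold higher. The fitted log2 difference on the log2(value + 1) scale was 9.54 ± 0.73 (limma adjusted p = 5.5e-14), but NCED2 could pass the filter through these 3 libraries alone, so its being called was set by its inclusion. edgeR's quasi-likelihood test on recovered reads gave an adjusted p of 3.5e-05, whereas DESeq2 gave 0.19. Within the late group, NCED2 made up 35.2% of the summed group means per kb of the dioxygenases, beside 54.6% from NCED3 and 10.2% from NCED5, and its share in single libraries was 25.3 to 53%. The last day of tcx5/6, D45, had NCED2 at 0 in 3 of 3 libraries; Col-0 has no group of that day, so these values are set side by side without a test.

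NCED5, known in Arabidopsis chiefly from seeds and stressed plants, stayed low outside the same late group. Under long days in Col-0 the libraries of D13 held 1.27, 3.33 and 6.75 normalised reads and those of D40 406, 10.7 and 149.9. The late libraries were thus very uneven, yet the lowest of them exceeded the highest of D13. The mean difference was 49.9-fold (log2 difference 4.40 ± 1.21, limma adjusted p = 0.0016), and 21.2-fold without replicate 1 of D40 or 82.2-fold without replicate 3 of D13. Against short days at D40 the difference did not pass (log2 difference 1.53 ± 1.21, adjusted p = 0.31) except without replicate 2 of the long-day group (adjusted p = 0.048).

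Under short days NCED5 held 24.5, 30.9 and 11 at D13, 34.1, 62.1 and 22.7 at D23, 0, 4.03 and 0 at D30 and 27.9, 54.7 and 17.6 at D40. It therefore dipped at D30: the fall from D23 (log2 difference -4.45 ± 1.21, adjusted p = 0.0054) and the rise to D40 (log2 difference 4.18 ± 1.21, adjusted p = 0.0064) were both called, but neither was with each short-day group as 1 library (adjusted p = 0.53 and 0.42). D40 against D13 did not pass there (adjusted p = 0.71). In tcx5/6 the libraries of D13 held 2.06, 0 and 57.1 and those of D45 1.55, 1.51 and 0, a difference that limma did not call (adjusted p = 0.26), while edgeR and DESeq2 called it lower at D45 (adjusted p = 0.021 and 0.00597).

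NCED9, a dioxygenase known from developing seeds, was not tested. Its 6 libraries above 0 were spread over 5 groups, with the highest values in tcx5/6 at D45 (18.5, 0 and 0) and in short days at D30 (0, 10.1 and 0). Each of these 2 groups owes its mean to 1 library. The 3 seed markers were near 0 throughout as well, with a summed level of at most 43.6 in any library.

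AAO3, the oxidase of the last step, rose with age in each of the 3 series, with the largest fold under long days in Col-0. There the libraries of D13 held 509, 559 and 712 normalised reads and those of D40 8120.2, 5166 and 3114. Under short days the 3 libraries of D13 held 691, 686 and 627 and those of D40 2016, 1997 and 1677. In tcx5/6 they held 559, 466 and 710.2 at D13 and 2099, 2005 and 1148 at D45. Early and late libraries did not overlap in any of the 3 series, and replicate spread at D13 was small (SD of 35.4 to 123).

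The rise was 9.21-fold in Col-0 long days (limma adjusted p = 7.05e-15), 2.84-fold in short days (adjusted p = 2.5e-07) and 3.03-fold in tcx5/6 (adjusted p = 1.3e-07). The difference of the age changes between long and short days was itself called (log2 difference 1.61 ± 0.31, adjusted p = 6.7e-05, and 0.029 with each short-day group as 1 library). At D13 no difference was called between day lengths (adjusted p = 0.55) or between genotypes (adjusted p = 0.92).

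In Col-0 long days the climb was late, with means of 844 ± 59.9 at D23, 1555 ± 139 at D30 and 5467 ± 2517 at D40. The steps from D23 to D30 (1.84-fold, adjusted p = 0.0015) and from D30 to D40 (3.51-fold, adjusted p = 4.2e-08) were called. Short-day leaves had more AAO3 RNA at D23 (1653 ± 139.9), 1.96-fold above long days (adjusted p = 0.00066, and 0.0801 with each short-day group as 1 library). On the opposite strand AT2G27160 covers 13.8% of the AAO3 exon length, and its density would account for 0.161% of the AAO3 mean.

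CYP707A3 had the widest range of the 9 genes, from 0 to 9537 normalised reads, and its change from D13 to D40 ran in opposite directions under the 2 day lengths. In Col-0 under long days the libraries of D13 held 5233, 3229.8 and 113, those of D18 402, 1367 and 662, and those of D40 106, 0 and 7.14. Short-day libraries held 76.3, 56.2 and 127 at D13, 535, 578 and 491 at D18 and 12.8, 27.6 and 40.5 at D23. They then held 7184, 7204 and 7174 at D30 and 8781, 9424 and 9537 at D40. Each short-day library of the last 2 days thus exceeded each of the other 39 libraries, the long-day ones of D13 included.

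From D13 to D40 CYP707A3 fell 75.7-fold under long days (limma adjusted p = 1.7e-06) and rose 107-fold under short days (adjusted p = 3.1e-06, and 0.025 with each short-day group as 1 library). The difference between the 2 age changes was -13.83 ± 1.64 on the log2 scale (adjusted p = 1.3e-08, and 0.00084 with each short-day group as 1 library). At D40 short-day leaves had 245-fold more CYP707A3 RNA than long-day leaves (adjusted p = 7.4e-09). The long-day mean of D40 rests on replicate 1, without which that fold was 2591 and the fall with age 801-fold, while without replicate 1 of D13 the fall was 44.3-fold. At D13 it was 33.1-fold higher under long days (adjusted p = 0.0064), but replicate 3 of the long-day group lay within the short-day range, and the adjusted p was 0.073 without replicate 1 (fold of 19.3), 0.19 with each short-day group as 1 library and 0.093 with only those 2 groups fitted.

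The short-day course was not a steady climb. CYP707A3 fell 19.8-fold from D18 to D23 (adjusted p = 0.0035) and rose 267-fold from D23 to D30 (adjusted p = 9.7e-07). With each short-day group as 1 library these became 0.44 and 0.063. The step from D30 to D40 did not pass (adjusted p = 0.85). Under long days the call of the last step, D40 against D30, depended on replicate 2 of D40, the library at 0 (adjusted p = 0.0099 with it and 0.16 without), and was absent with edgeR (0.13) and DESeq2 (0.23).

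In the libraries labelled tcx5/6 CYP707A3 was near the floor from the start. Its 15 libraries ranged from 0 to 56.4 with a median of 5.8, and the 3 of D18 were at 0. At D13 the level was 698-fold below Col-0 of the same day length (limma adjusted p = 1.8e-07), or 408-fold without replicate 1 of Col-0 and 1127-fold without replicate 1 of tcx5/6, and at D18 it was at least 818-fold below, against the floor of 3 reads over the group (adjusted p = 1.6e-08). Over D13 to D30 the fitted log2 difference was -5.85 ± 0.58 (adjusted p = 5.4e-11). D45 against D13 in tcx5/6 was not called (adjusted p = 0.43).

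CYP707A1, a hydroxylase known in Arabidopsis from guard cells and mid-stage seeds, was highest in short-day leaves of D30. Under long days in Col-0 its libraries held 390.1, 223 and 105 normalised reads at D13 and 812, 208 and 82.1 at D40. Short-day libraries held 10.2, 66.8 and 32.3 at D13, 836, 933 and 851 at D30 and 304, 275 and 313 at D40. The libraries of short days at D30 lay above those of the other 14 groups, without overlap. In Col-0 long days D13 and D40 overlapped, and replicate 1 was the highest of D13 for CYP707A1, CYP707A3 and NCED3 alike.

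Short-day CYP707A1 rose 8.17-fold from D13 to D40 (limma adjusted p = 0.0014), or 14-fold without replicate 2 of D13, a call that was lost with each short-day group as 1 library (adjusted p = 0.19). Its rise from D23 to D30 was 8.46-fold (adjusted p = 0.0099, and 0.54 in that fit). Long days gave no called change from D13 to D40 (adjusted p = 0.86). The difference between the age changes was -3.14 ± 1.28 on the log2 scale (adjusted p = 0.044), and 9 of the 12 fits that left out 1 library did not call it (adjusted p up to 0.145). In tcx5/6 CYP707A1 ranged from 0 to 212, with the 0 in replicate 2 of D18, and over D13 to D30 it was lower than in Col-0 by a fitted log2 difference of -2.12 ± 0.45 (adjusted p = 0.00013).

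CYP707A2, the hydroxylase that lowers abscisic acid when seeds take up water, was higher in tcx5/6 than in Col-0 of the same day length. At D13 the tcx5/6 libraries held 677, 572 and 625 normalised reads, against 10.1, 25 and 36.5 in Col-0 long days and 115, 93.5 and 99 in short days. The 3 groups did not overlap, and tcx5/6 lay 26.2-fold above Col-0 of the same day length (limma adjusted p = 2.6e-07). The difference was called on each of the 4 shared days, at 8.12-fold on D18 (adjusted p = 0.00502), 6.55-fold on D23 (0.0032) and 4.76-fold on D30 (0.0016). On D18 the tcx5/6 libraries held 176, 9.999 and 193, so that replicate 2 overlapped with Col-0, and the call was lost without replicate 1 (0.060) or replicate 3 (0.069). The fold on D30 was 7.44 without replicate 1 of Col-0. Short-day Col-0 had means of 185 ± 54.2 on D18 and 606 ± 28.1 on D23, above the 126 ± 101 and 329 ± 109.8 of tcx5/6, a pair of series that differ in day length as well as genotype and were not tested.

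With age CYP707A2 rose 8.46-fold under long days in Col-0, to 86.2, 336 and 183 at D40 (limma adjusted p = 0.00019), and 3.85-fold under short days, to 448, 365 and 372 (adjusted p = 0.011, and 0.27 with each short-day group as 1 library). In tcx5/6, at 878, 979.7 and 618 on D45, no change from D13 was called (adjusted p = 0.65). Short-day leaves had more CYP707A2 RNA than long-day leaves on D18 (11.9-fold, adjusted p = 7.9e-05) and D23 (12.1-fold, adjusted p = 5.9e-05), also with each short-day group as 1 library (adjusted p = 0.046 and 0.035). By D40 that difference did not pass (adjusted p = 0.15).

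CYP707A4 rose with age in each of the 3 series. In Col-0 long days the libraries held 22.8, 0 and 17.6 normalised reads at D13 and 234, 303 and 378 at D40. Under short days they held 2.72, 33 and 5.87 and 372, 489 and 244 on the same days. In tcx5/6 they held 93.7, 100.5 and 114 at D13 and 385, 409 and 373 at D45. Both Col-0 series started near the floor and ended at a similar level, and tcx5/6 started higher.

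The rise was 22.7-fold in Col-0 long days (limma adjusted p = 3.7e-07) and 26.5-fold in short days (adjusted p = 5.5e-07), and the difference between these 2 changes was 0.09 ± 1.13 on the log2 scale (adjusted p = 0.96). Since D13 is near the floor, the folds were 34.8 without replicate 1 of long days at D13 and 85.7 without replicate 2 of short days at D13. In tcx5/6 it was 3.79-fold (adjusted p = 0.036), a call lost when any 1 of the 6 libraries was left out (0.058 to 0.079) and with a pseudocount of 0.5 (0.0601). At D13 tcx5/6 lay 7.64-fold above Col-0 (adjusted p = 0.000196), or 11.7-fold without replicate 1 of Col-0, and at D30 no difference was called (adjusted p = 0.76).

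Summed per kb over the family, the dioxygenase sum was 439 ± 338 normalised reads per kb in Col-0 long days at D13, 31.2 ± 7.32 in short days and 39.95 ± 15.2 in tcx5/6, and 903 ± 639, 263 ± 15 and 155 ± 64.9 on the last day of each series. As shares of these group means, NCED3 supplied 98.9 to 99.3% in long days up to D30. At D13 its share was lower in short days (63.5%) and in tcx5/6 (73.4%), where the sums are small and NCED5 gave 34.5 and 24%. Single-library shares of NCED5 were 21.5 to 40.6% in short days and 0 to 48.3% in tcx5/6, where its libraries held 2.06, 0 and 57.1 normalised reads.

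The hydroxylase sum went from 1531 ± 1325 per kb at D13 to 138 ± 26.3 at D23 and 453 ± 139 at D40 in Col-0 long days, and from 112 ± 16.1 at D13 to 459 ± 59.1 at D23 and 5049 ± 176 at D40 in short days. Under long days CYP707A3 supplied 91.4% of the summed means at D13 (42.4 to 93.2% in single libraries) and 4.08% at D40, when CYP707A4 gave 38.5% and CYP707A1 38.3%. In short days CYP707A3 supplied 84.3% at D30 and 89.7% at D40, after 2.88% at D23. In tcx5/6 its share was at most 2.93% in any group mean, and CYP707A2 and CYP707A4 together made up most of the sum on each day. Exon lengths are from the RefSeq annotation of TAIR10.1, which may differ from the one the authors counted on, and these shares carry no test.

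**Figure D2:**
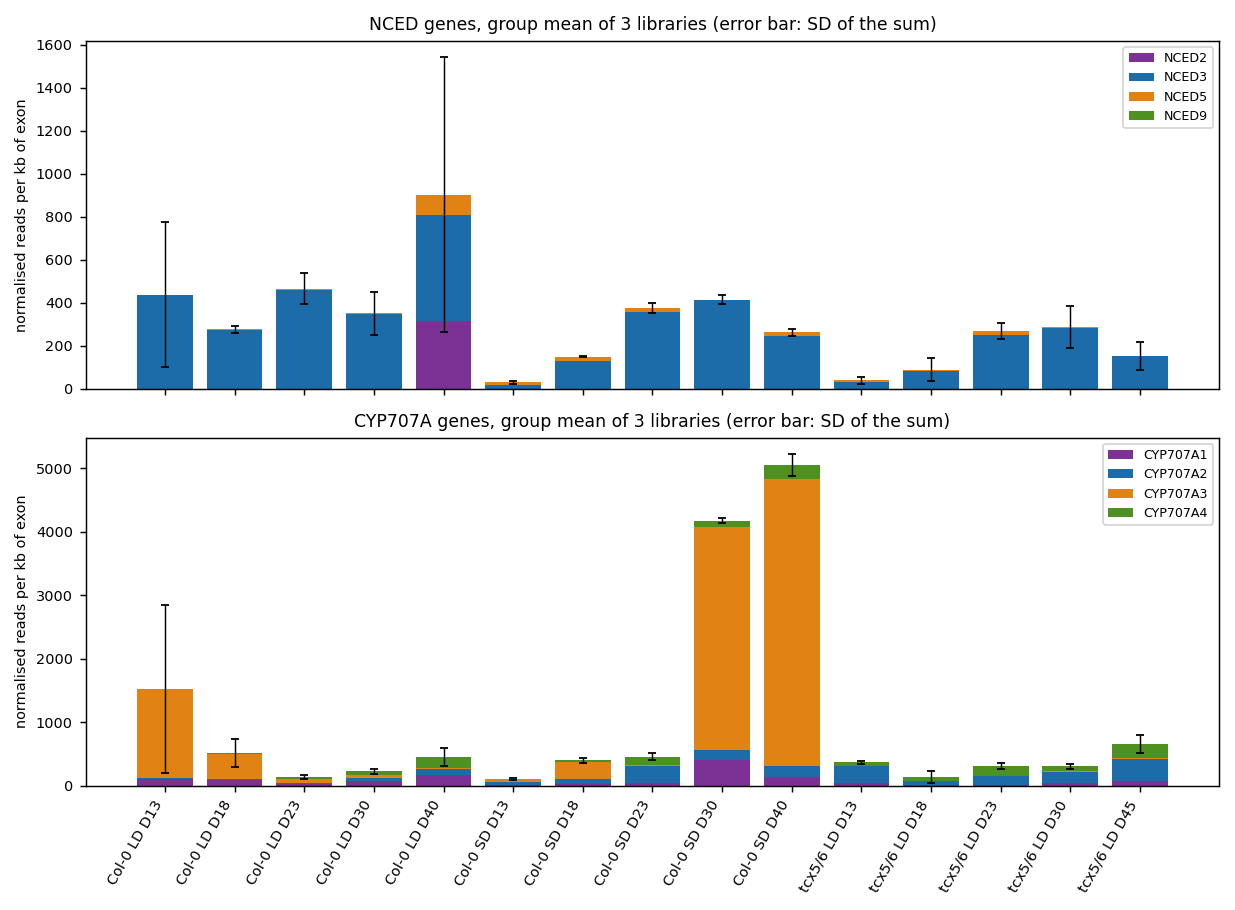
Stacked group means (3 libraries each) of normalised reads per kb of exon for the 4 NCED genes (upper axes) and the 4 CYP707A genes (lower axes) in the 15 groups, with the SD of the summed level as error bars. NCED3 is the largest segment of each bar of the upper axes, NCED2 is 35.2% of the bar of Col-0 LD at D40, and CYP707A3 fills 84.3% and 89.7% of the tall bars of Col-0 SD at D30 and D40.

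Read across the age comparisons, the 8 tested genes changed as follows, beside the share of the 23493 genes that was called. In Col-0 under long days 5 of the 8 rose from D13 to D40 (NCED2, NCED5, AAO3, CYP707A2 and CYP707A4) and 1 fell (CYP707A3), where 69.8% of the 23493 genes were called, 34% as higher and 35.8% as lower. NCED2 is in that count through its inclusion, and without it 4 of 7 rose. Under short days 6 rose (NCED3, AAO3 and the 4 hydroxylase genes), where 70.5% were called, 34% as higher and 36.5% as lower. In tcx5/6 3 rose from D13 to D45 (NCED3, AAO3 and CYP707A4), where 64% were called, 30.1% as higher and 33.9% as lower. Called shares of the members themselves (6, 6 and 3 of 8) were thus near or below those of the whole table.

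Between day lengths at D13, NCED3, CYP707A1 and CYP707A3 were higher under long days and CYP707A2 was lower, with 40% of the 23493 genes called, 19.5% as higher and 20.6% as lower. NCED3 alone was still called with each short-day group as 1 library (adjusted p = 0.00083). The calls of CYP707A1 and CYP707A2 at D13 (adjusted p = 0.012 and 0.0081) were lost without replicate 1 of the long-day group (0.066 and 0.070), and that of CYP707A1 also without replicate 1 of the short-day group (0.094). At D40 NCED2 and AAO3 were higher under long days and CYP707A3 lower, with 50.3% called, 21.2% as higher and 29.1% as lower. The NCED2 call again follows from its inclusion, and DESeq2 did not make it (adjusted p = 0.43). The age change differed between day lengths for 5 of the 8 (more positive under long days for NCED2 and AAO3, more negative for NCED3, CYP707A1 and CYP707A3), with 45.8% called, 20.4% as more positive and 25.4% as more negative. For NCED2 that difference was 9.24 ± 1.04 on the log2 scale and for NCED3 -3.45 ± 0.66 (adjusted p = 4.3e-09 and 5.3e-05). NCED2 is in this count, too, through its inclusion, and DESeq2 did not call its difference.

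On the days between, each member called was higher under short days. At D18 these were NCED5, AAO3 and CYP707A2 (29.7% of the 23493 genes called, 15.7% as higher in short days), of which NCED5 was lost without 5 of the 6 libraries (0.070 to 0.15) and AAO3 without 4 of 6 (0.084 to 0.17). At D23 they were AAO3, CYP707A2 and CYP707A4 (37.6% called, 18.1% as higher in short days), and CYP707A4 was lost without 5 of 6 (0.062 to 0.14). At D30 they were CYP707A1, CYP707A2 and CYP707A3 (36.6% called, 21% as higher in short days), of which CYP707A1 was lost without any 1 of the 6 (0.060 to 0.093) and CYP707A2 without replicate 2 of the long-day group (0.11). CYP707A3 at D30 lay 64.8-fold above long days (adjusted p = 7.9e-05, and 0.039 with each short-day group as 1 library).

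Between genotypes under long days, over D13 to D30, CYP707A2 (log2 difference 3.12 ± 0.34, adjusted p = 4.8e-10) and CYP707A4 (2.12 ± 0.40, 2.2e-05) were higher in tcx5/6. NCED3 (-1.65 ± 0.23, 1.6e-07), CYP707A1 and CYP707A3 were lower there, and 58.8% of the 23493 genes were called, 26.2% as higher and 32.7% as lower. These 5 calls held when any 1 of the 24 libraries was left out, replicate 2 of tcx5/6 at D18 included. The change from D13 to D30 differed between genotypes for 3 of the 8, with 24.2% called, 13.3% as more positive and 10.9% as more negative: NCED3 (log2 difference 3.18 ± 0.66, adjusted p = 0.00037) and CYP707A3 (5.36 ± 1.64, 0.014) had the more positive change in tcx5/6, and CYP707A4 (-3.36 ± 1.13, 0.027) in Col-0. With only the 4 groups concerned in the fit, NCED3 alone was called (adjusted p of 0.059 for CYP707A3 and 0.087 for CYP707A4), and the calls of CYP707A3 and CYP707A4 did not survive leaving out single libraries. That of CYP707A3 was lost without replicate 1 or 2 of Col-0 long days at D13 (0.063 and 0.051), replicate 2 of tcx5/6 at D13 (0.058) or replicate 3 of tcx5/6 at D30 (0.051). That of CYP707A4 was lost without replicate 2 of Col-0 long days at D13 (0.17), replicate 3 of tcx5/6 at D13 (0.051) or replicate 1 of tcx5/6 at D30 (0.055).

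Step by step, none of the 8 changed by limma in Col-0 long days from D13 to D18 (9.7% of the 23493 genes called) or from D18 to D23 (11.2%). At an unadjusted p under 0.05 the first step had 0 of the 8 and the second 4, while edgeR called 0 and 1 and DESeq2 0 and 2. AAO3 alone rose from D23 to D30 (41.3%), and NCED2, NCED5 and AAO3 rose while CYP707A3 fell from D30 to D40 (52.7%). NCED5 in that last step was lost without replicate 1 or 3 of D40 (adjusted p = 0.13 and 0.052) or replicate 3 of D30 (0.050). The NCED2 call of that step follows from its inclusion, and the CYP707A3 call was the one that rests on replicate 2 of D40.

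Under short days NCED3 and CYP707A4 rose from D13 to D18 (31.3% of the 23493 genes called), with CYP707A4 lost without replicate 1 or 3 of D13 (adjusted p = 0.13 and 0.062). From D18 to D23 NCED3, AAO3, CYP707A2 and CYP707A4 rose and CYP707A3 fell (29.9% called), and the calls of CYP707A2 and CYP707A4 were lost when any 1 of the 6 libraries was left out (0.066 to 0.16 and 0.062 to 0.13). From D23 to D30 CYP707A1 and CYP707A3 rose and NCED5 fell (25.5% called). From D30 to D40 NCED5 and AAO3 rose (38.3% called), with AAO3 lost without 5 of the 6 libraries (0.064 to 0.090).

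In tcx5/6 NCED3 rose and CYP707A1 and CYP707A2 fell from D13 to D18 (39.5% of the 23493 genes called), and NCED3, AAO3, CYP707A2 and CYP707A3 rose from D18 to D23 (21.6% called). Replicate 2 of D18, with CYP707A1 at 0 and CYP707A2 at 9.999, decided several of these calls: without it CYP707A1 was not called in the first step (adjusted p = 0.45), and NCED3, AAO3 and CYP707A2 were not called in the second (0.089, 0.12 and 0.40). By limma 0 of the 8 were called from D23 to D30 (27.4%) and from D30 to D45 (23.1%), where an unadjusted p under 0.05 was reached by 2 and 1, edgeR called 1 and 2 and DESeq2 called 1 and 2. The first step of NCED3 was lost without any 1 of the other 5 libraries (0.056 to 0.15). The second step of AAO3 was lost without 3 other libraries as well (0.10 to 0.19), and that of CYP707A2 without replicate 2 or 3 of D23 (0.079 and 0.062).

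Between genotypes on single days, tcx5/6 had more CYP707A2 and CYP707A4 and less NCED3 and CYP707A3 than Col-0 at D13 (43.5% of the 23493 genes called). At D18 the same 4 differed in the same directions and CYP707A1 was lower too (47.6% called). At D23 CYP707A2 and CYP707A4 were higher (24.8% called), and at D30 CYP707A2 was higher and CYP707A3 lower (35.1% called). CYP707A4 was lost at D18 without replicate 2 of Col-0 or replicate 1 or 3 of tcx5/6 (0.098 to 0.40) and at D23 without any of 5 libraries (0.052 to 0.12), and CYP707A3 at D30 without any of 5 (0.074 to 0.15).

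**Figure D3:**
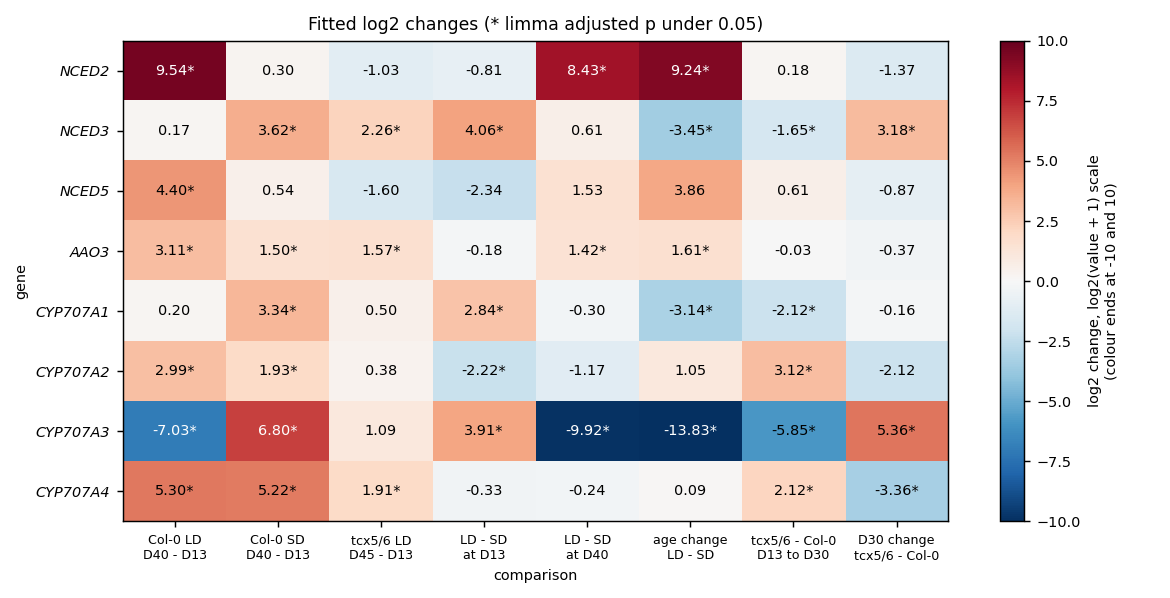
Fitted log2 differences on the log2(value + 1) scale for the 8 tested genes (rows) in the 8 main comparisons (columns), with red for higher and blue for lower in the first-named group and an asterisk at a limma adjusted p under 0.05. CYP707A3 shows -7.03 with age in Col-0 LD and 6.80 in Col-0 SD, and AAO3 shows 3.11 and 1.57 with age in Col-0 LD and tcx5/6 LD.

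Genes whose group means followed each member most closely were sought among the 19305 genes that passed the filter with a highest group mean of 100 or more and, for naming, a symbol. Pearson's r was taken over the 15 group means of log2(value + 1), which share libraries and age, and is given as a description. CYP707A3 was closest to DIC2, a mitochondrial dicarboxylate carrier (r = 0.97), CAF1a, a deadenylase subunit (0.97), and NHL2 (0.96). RAP74 and UBP10 were among the closest to AAO3 (0.98 and 0.97), and NCED2 was closest to NPC5, VRN2 and CYP91A2 (0.97, 0.92 and 0.92). NCED2 left the floor only in Col-0 long days at D40, so its r values rest largely on that group. Over the 45 libraries its r with NPC5 was 0.85. For NCED3 the 3 were AAE15, CID11 and RD26 (0.91, 0.87 and 0.87), of which RD26 is a stress-induced NAC factor.

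CYP707A4 was followed by GolS1, G-TMT and G3Pp1 (0.93 each), CYP707A2 by CLPB4, HCC2 and COP13 (0.93, 0.92 and 0.89), and CYP707A1 by EXL2, WRKY21 and PFA-DSP3 (0.92, 0.90 and 0.89). NCED5 had no close match, with HESO1, CXE20 and TAF6B at 0.71, 0.69 and 0.69. Among the members themselves the highest correlation over group means was 0.76, between CYP707A2 and CYP707A4, followed by 0.71 between NCED2 and AAO3. The value for NCED2 rests largely on Col-0 long days at D40. Over the 45 libraries Spearman's rho was 0.70 for CYP707A2 and CYP707A4 and 0.30 for NCED2 and AAO3.

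DIC2 was picked for its group means in these same libraries, and its single libraries are given as a description. In Col-0 long days at D13 DIC2 held 17643, 14642 and 1446 normalised reads, with replicate 3 low for both genes. At D40 of short days it held 30057, 30471 and 29494, and in tcx5/6 at D13 49.4, 131 and 98.9. Over the 45 libraries r on log2(value + 1) was 0.93, which includes the differences between groups. DTX50, an exporter of abscisic acid, likewise held 10214, 4659.9 and 155 in Col-0 long days at D13 and 10159, 9915 and 10306 in short days at D40.

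**Figure D4:**
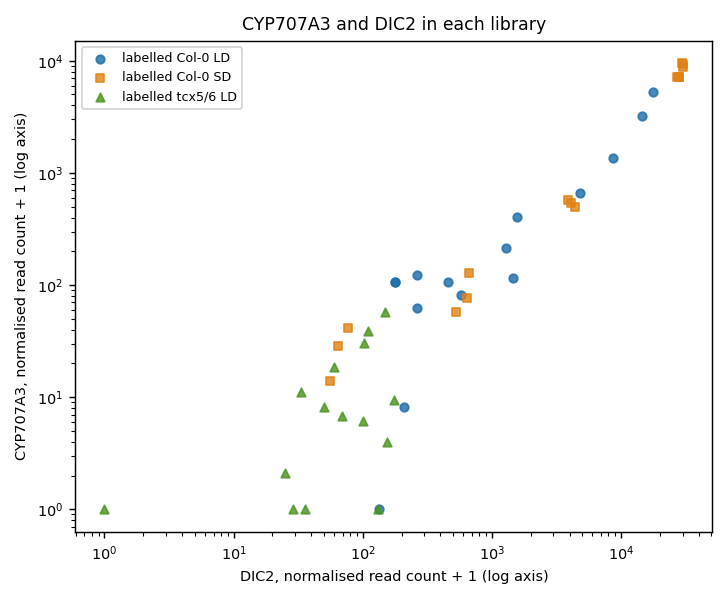
CYP707A3 against DIC2 in each of the 45 libraries, both as normalised read count + 1 on log axes, with blue circles for libraries labelled Col-0 LD, orange squares for Col-0 SD and green triangles for tcx5/6 LD. Points rise together from the tcx5/6 libraries, with CYP707A3 at 56.4 or less, to the short-day libraries of D30 and D40, with r of 0.93 on the log2 scale.

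Other genes of the pathway were counted from lists for the last day against D13 in Col-0 long days, Col-0 short days and tcx5/6. The median log2 difference of all 23493 genes was -0.01, -0.06 and -0.03 in these 3 comparisons, and genes named from a list are among the 2 with its lowest adjusted p. A gene not named for a series may have been called there too. Of the other synthesis genes (ABA1, ABA2, ABA3, ABA4, NCED6, AAO1, AAO2 and AAO4), 7 of 8 were tested, and 3 rose and 2 fell in long days, 4 rose and 3 fell in short days, and 4 rose and 2 fell in tcx5/6 (medians 0.12, 1.09 and 0.30). ABA3, which activates the cofactor of AAO3, went from 233 ± 29.9 to 2205 ± 1101 (adjusted p = 4.7e-14) in Col-0 long days, and AAO4 went from 2.22 ± 2.83 to 2309 ± 1384 (adjusted p = 5e-13). ABA1, the zeaxanthin epoxidase, went from 2564 ± 108 to 8919 ± 232 (adjusted p = 1.3e-13) in short days and from 8661 ± 256 to 15506 ± 2138 (adjusted p = 3.1e-06) in tcx5/6. ABA2 fell in the same 2 series, by log2 differences of -1.08 ± 0.22 (adjusted p = 5e-05) and -1.502 ± 0.22 (adjusted p = 2.4e-07), where reads of opposite-strand genes over its exons, which the unstranded libraries cannot separate, would account for 56.6% of its mean. In Col-0 long days ABA2 went from 304 ± 48.2 to 193 ± 53.5.

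Abscisic acid is also stored as a glucose ester. Of 6 genes of conjugation and release 5 were tested, and 3 rose and 2 fell in long days, 3 rose and 1 fell in short days, and 3 rose and 1 fell in tcx5/6 (medians 0.45, 1.55 and 1.30). The tested genes include UGT71B6, with 100% of its exon length under an opposite-strand gene. Reads of that gene would account for 94.6% of the UGT71B6 mean. UGT71B7, a glucosyltransferase, rose in the 3 series, by 2.95 ± 0.20 (adjusted p = 1.9e-15), 2.75 ± 0.20 (adjusted p = 2.2e-14) and 1.70 ± 0.20 (adjusted p = 2.9e-09) on the log2 scale. The glucosidase BGLU18, which frees the hormone, went from 1059.9 ± 159 to 6.46 ± 9.89 (adjusted p = 2.8e-14) in Col-0 long days. It went from 4198 ± 53 to 1716 ± 96.8 in short days. In tcx5/6 BGLU18 went from 3414 ± 544 to 7651 ± 7834, with libraries of 2139, 4195 and 16618 at D45. UGT71C5, another glucosyltransferase, rose by 1.55 ± 0.14 (adjusted p = 6.8e-12) in short days and 1.30 ± 0.14 (adjusted p = 5.8e-10) in tcx5/6. In Col-0 long days it went from 1085 ± 129 to 1495 ± 306. Of 6 transporter genes, 2 rose and 1 fell in long days, 4 rose in short days, and 2 rose in tcx5/6 (medians 0.40, 2.004 and 0.37). The importer ABCG40 rose in long-day Col-0, by 6.87 ± 0.69 (adjusted p = 4.5e-11). The exporter ABCG25 rose there and in tcx5/6, by 1.81 ± 0.28 (adjusted p = 4.7e-07) and 2.63 ± 0.28 (adjusted p = 2.6e-10), and the importer NPF4.6 rose by 1.93 ± 0.17 (adjusted p = 3.1e-12) in short days and 2.13 ± 0.17 (adjusted p = 2.7e-13) in tcx5/6. In short days ABCG25 went from 65 ± 7.29 to 279 ± 45.8 and ABCG40 from 123 ± 43.2 to 3414 ± 180. In tcx5/6 ABCG40 went from 143 ± 42.2 to 77.6 ± 10.8.

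On the response side, 10 of 14 receptor genes were tested, and 7 rose and 1 fell in long days, 4 rose and 2 fell in short days, and 3 rose and 2 fell in tcx5/6 (medians 0.66, 0.43 and 0.05). PYL9 went from 198 ± 23.6 to 607 ± 82 (adjusted p = 5.9e-09) in Col-0 long days, PYR1 from 624 ± 65.5 to 1523 ± 103 (adjusted p = 7.4e-11) in short days and PYL9 from 153 ± 23.1 to 821 ± 156 (adjusted p = 5.3e-13) in tcx5/6. The clade A phosphatases, which hold the pathway off and are themselves induced by abscisic acid, rose in each series: of 8 tested of 9, 7 rose in long days, 6 rose in short days, and 7 rose in tcx5/6 (medians 2.60, 1.65 and 1.86). HAB1 rose by 4.28 ± 0.27 (adjusted p = 4.1e-16) in long days and 3.31 ± 0.27 (adjusted p = 5.9e-13) in short days, and HAB2 by 1.93 ± 0.16 (adjusted p = 1.4e-12) in tcx5/6. Of the 3 SnRK2 kinases, 1 rose and 1 fell in long days, 2 rose in short days, and 2 rose in tcx5/6. SNRK2.2 rose by 0.71 ± 0.11 (adjusted p = 6.04e-07), 0.75 ± 0.11 (adjusted p = 2.3e-07) and 2.04 ± 0.11 (adjusted p = 6.9e-18), and OST1, the guard cell kinase, fell by 0.59 ± 0.20 (adjusted p = 0.0091) in long days.

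Of 7 transcription factors of the pathway 5 were tested, and 4 rose in long days, 3 rose in short days, and 5 rose in tcx5/6 (medians 1.19, 1.57 and 1.66). ABF4 rose in the 3 series, by 1.19 ± 0.13 (adjusted p = 1.7e-10), 1.65 ± 0.13 (adjusted p = 6.8e-14) and 1.66 ± 0.13 (adjusted p = 5.9e-14), where an opposite-strand gene would account for 15.1% of its mean. Of 8 genes that abscisic acid induces, 5 rose in long days, 7 rose in short days, and 7 rose in tcx5/6 (medians 3.14, 5.02 and 4.10), led by ATHB7 in both Col-0 series, by 6.66 ± 0.34 (adjusted p = 1e-18) and 5.90 ± 0.34 (adjusted p = 7.4e-17), and by RD29A in tcx5/6, by 5.55 ± 0.32 (adjusted p = 5.3e-17). The NAC factors NAP, known to activate AAO3 in ageing Arabidopsis leaves, and ATAF1, known to activate NCED3, rose in each series. The ATAF1 libraries overlapped in Col-0 long days, at 2763, 1344 and 482 on D13 and 8062, 2017 and 1072 on D40. ATAF1 went from 220 ± 11.6 to 3257 ± 225 in short days and from 339 ± 14.4 to 751 ± 185 in tcx5/6. Under long days in Col-0 NAP went from 42 ± 10.7 to 21995 ± 9998 (adjusted p = 3.1e-17), and under short days from 0.245 ± 0.424 to 5687 ± 502 (adjusted p = 2.8e-20). In tcx5/6 it went from 12.2 ± 7.47 to 1613 ± 1076 (adjusted p = 1.2e-13). The lists were chosen with earlier results of these data known, and each count stands beside called shares of 69.8, 70.5 and 64% of the 23493 genes. By direction these shares were 34, 34 and 30.1% as higher and 35.8, 36.5 and 33.9% as lower.

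**Figure D5:**
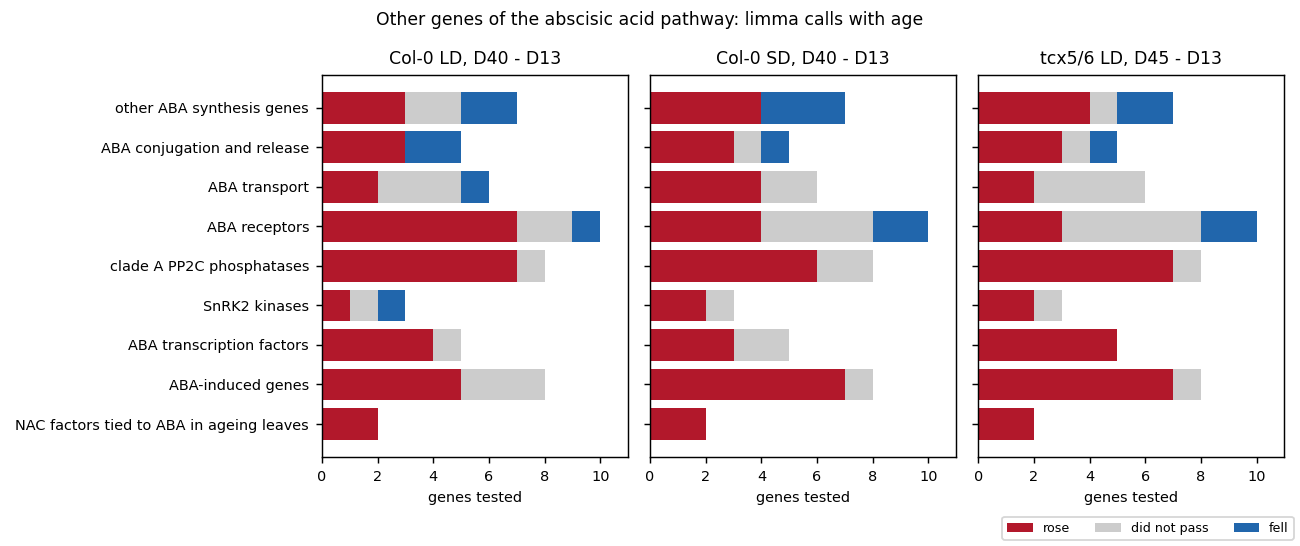
Number of tested genes in each of 9 lists of the abscisic acid pathway that rose (red), did not pass (grey) or fell (blue) by limma from D13 to the last day in Col-0 LD, Col-0 SD and tcx5/6 LD. The phosphatases show 7, 6 and 7 risen of 8 tested and the abscisic acid-induced genes 5, 7 and 7 of 8.

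Markers of cell types moved with age as well. From D13 to D40 in Col-0 long days 3 of 3 mesophyll markers fell. In that comparison 34% of the 23493 genes were called as higher and 35.8% as lower. Of 5 guard cell markers 1 rose and 3 fell, and the summed level was 2869.7 to 3480.2 at D13 and 5500.1 to 7129 at D40. The rise of this sum is that of KAT1, which went from 1127 ± 198 to 5633 ± 762. The means of SLAC1, GC1, MYB60 and FAMA were each lower at D40 than at D13. Of 7 vascular markers 1 rose and 5 fell, with sums of 20257 to 23593 and 12289.5 to 18074. In short days the mesophyll sum was 719012 to 733679 at D13 and 139830.0 to 145444 at D40, and in tcx5/6 it was 716277 to 770390.0 at D13 and 108102 to 223525 at D45. Over D13 to D30 7 of 7 vascular markers were lower in tcx5/6 than in Col-0, where 32.7% of the 23493 genes were called as lower. That is the direction of NCED3, CYP707A1 and CYP707A3 and not that of CYP707A2 or CYP707A4. At D30 alone the means of APL, XCP1, IRX3 and CESA4 were not lower in tcx5/6, while those of SUC2, AHA3 and CESA8 were. The part of these shifts in the values of the 9 genes was not tested.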

How the data were processed

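Each library of polyadenylated leaf RNA was represented by 1 column of the deposited table. The authors trimmed reads with Trim Galore 0.6.6 and cutadapt, aligned them with STAR 2.7.1a, counted them per gene with HTSeq 2.0 and scaled them with DESeq2 1.40.1, per the submitters' processing notes, and libraries were unstranded, per the labels' protocols. The genome build and annotation are not given in the sources used here. The deposited signal values are counts divided by a size factor for each library. Every value in the 45 libraries was a whole multiple of its library's smallest step within 0.01, so reads were recovered and used for edgeR and DESeq2. Reads in genes numbered 16824317 to 40252818 a library (median 25596039), and 5 summary rows were left out, of which the row of reads in no gene held 45.95 to 48.19%. Groups were taken from the labels. Precision is set by 3 libraries a group and, for low genes, by read number, and these errors cover counting and library spread only.

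From these values, log2(value + 1) was fitted with limma 3.58.1 (R 4.3.3), with 15 group means in 1 model, a trended prior and 30 residual degrees of freedom, for 23493 of 37336 genes with at least 3 libraries at 10 or more. P-values were two-sided and adjusted over these genes by Benjamini-Hochberg within each of 27 comparisons. Folds are ratios of group means, and folds against a group at 0 are lower bounds from 3 reads over the group. The same steps were tested on simulated data for D40 against D13 in Col-0 long days, with 200 of 23493 genes changed, and 47% of those changed 2-fold and 99% of those changed 4-fold were called, with 13 false calls. The simulation gave all genes and groups the same dispersion, whereas the real groups differ in spread, so these rates may not hold for them. Alternatives were pseudocounts of 0.5 and 10, no filter, a filter at 50, TMM scaling, quantile normalisation, a fit of the compared groups only, a replicate block, edgeR 4.0.16, DESeq2 1.42.0, each short-day group as 1 library, and leaving out each library. The 9 members and the gene lists were chosen with earlier results of these data known. All 9 members are named. From a list, up to 2 called genes with the smallest adjusted p are named in a comparison, and for likeness the 3 genes with the highest r, of which 1 is not reported here. Replicate numbers were not taken to pair libraries: the correlation of same-numbered libraries' deviations ran from -0.088 to 0.135 over pairs of groups. Tables were handled with Python 3.11.15, pandas 2.3.3 and numpy 2.4.6, and figures drawn with matplotlib 3.10.9.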

Additional observations from a re-analysis of the deposited data

Results flagged for a closer look

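Tests of the difference between 2 age changes put 8 results of the members here, and their causes were not tested. From D13 to D40 in Col-0, the change under long days minus that under short days was, on the log2 scale, 9.24 ± 1.04 for NCED2 (limma adjusted p = 4.3e-09), 1.61 ± 0.31 for AAO3 (6.7e-05), -3.45 ± 0.66 for NCED3 (5.3e-05), -3.14 ± 1.28 for CYP707A1 (0.044) and -13.83 ± 1.64 for CYP707A3 (1.3e-08). The CYP707A3 libraries of D13 and D40 did not overlap in either day length, and they moved in opposite directions. Its fold of 75.7 under long days rests on libraries of 5233, 3230 and 113 at D13 and of 106, 0 and 7.14 at D40, and DIC2 and DTX50 were low in that same library of replicate 3. NCED2 reached the filter through the 3 late long-day libraries, and DESeq2 gave its difference an adjusted p of 0.47. The NCED3 difference came with a change under short days from 54.1 ± 10.4 to 669 ± 10.6 and none that passed under long days.

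From D13 to D30 under long days, the change in tcx5/6 minus that in Col-0 was 3.18 ± 0.66 for NCED3 (limma adjusted p = 0.00037), 5.36 ± 1.64 for CYP707A3 (0.014) and -3.36 ± 1.13 for CYP707A4 (0.027). For CYP707A3 the positive value goes with a change in Col-0 from 2859 ± 2579.8 to 111 ± 9.95 beside 4.09 ± 3.7 and 17.3 ± 17.7 in tcx5/6. CYP707A4 went from 13.5 ± 11.9 to 97 ± 7.48 in Col-0 and from 103 ± 10.4 to 129.7 ± 21.2 in tcx5/6. Outlying libraries were not tested, since each group holds 3.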

How the results depend on the processing

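The number of members called stayed within 1.5 times its value under every alternative for 5 of the 8 main comparisons, and leaving out single libraries gave 5 to 6 in Col-0 LD with age, 6 throughout in Col-0 SD with age, 2 in tcx5/6 with age, 2 to 3 for LD against SD at D40 and 5 throughout for tcx5/6 against Col-0. For LD against SD at D13 the count of 4 became 1 with each SD group as 1 library, and 1 to 4 when single libraries were left out, with 1 without replicate 1 of Col-0 LD at D13. For the difference of age changes between day lengths the count of 5 ranged from 3 to 5, with 3 without replicate 3 of Col-0 LD at D40. For that between genotypes the count of 3 became 1 with only the compared groups in the fit, and ranged from 1 to 4, with 1 without replicate 2 of Col-0 LD at D13. NCED2 fails the filter, and gives no value, without any 1 of its 3 late libraries. The replicate block left the 8 counts at 6, 6, 3, 4, 3, 5, 5 and 3 and changed no call of a member. No member result changed direction among those called: of 216 results, 81 of them called, 3523 refits kept the side of the threshold, 175 lost a call and 74 gained one. The causes of these changes were not tested, except that taking each SD group as 1 library removes 10 libraries.

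Quantile normalisation moved the median log2 difference of all genes to -0.17 with age in SD, 0.15 for LD against SD at D40, 0.22 for the difference of age changes between day lengths and 0.11 for LD against SD at D30, and TMM moved it to -0.10 for that between genotypes. By over 10 percentage points, quantile normalisation turned the split of higher and lower genes from 4976 and 6844 to 6994 and 5178 for LD against SD at D40, from 4795 and 5960 to 6323 and 4795 for the age changes, and from 3656 and 4944 to 5251 and 4096 at D30. By less, it also turned the split from 6144 and 7678 to 7191 and 6702 for tcx5/6 against Col-0, from 7992 and 8413 to 8517 and 7816 with age in Col-0 LD and from 7076 and 7962 to 7886 and 7326 with age in tcx5/6, and it turned that of tcx5/6 against Col-0 on single days and of LD against SD at D23 too. Depth limits NCED9 and NCED2, which lie at a few reads or 0 in most libraries. It also limits NCED5, which was at 10 or more in 24 of 45 libraries and at 0 in 6.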
